A study of Homo sapiens with 6 samples.

Results

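Interleukins, chemokines, interferons and their receptors were examined in HCT116, a human colorectal cancer cell line with microsatellite instability. Members were the genes on a glycogene array whose symbol begins as those of an interleukin, a CXC, CC, XC or CX3C chemokine or chemokine receptor, an interferon or an interferon receptor. The rule found 98 genes among the 927 that could be named, and membership went by symbol only. The brightest probe set then stood for each gene, and members were chosen with earlier results of these data known. The cells carried a doxycycline-inducible gene, which the titles give as wild-type ACVR2 (an activin receptor) and the source labels as TGFBR2, ACVR2 and AIM2. All 6 samples received activin A. Of these, 3 were given doxycycline (+DOX) and 3 were not (-DOX), so the comparison asks which genes differ between cells with and without the inducing drug. No sample received doxycycline without an inducible gene, so the drug and the gene cannot be told apart. The labels give no dose or time and do not say that replicates were separate cultures, so the spread behind every p-value is that among these 6 samples and may be purely technical.

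Cytokines are small secreted proteins that bind receptor chains on the cell surface. Interleukins and interferons signal mainly through receptor-bound kinases or Toll-like adaptor pathways, while chemokines bind receptors coupled to G proteins and guide migrating cells. In the colon, most interleukins and chemokine receptors belong to immune cells. Epithelial cells carry the widely expressed interferon receptor chains, and colorectal cancer cells can secrete the chemokines that attract neutrophils.

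Values are RMA log2 levels, so 1 unit is a doubling of signal. The 6 arrays had medians from 7.61 to 7.65, and no pair held identical values. Replicate 3 without doxycycline stood apart: its correlations with the other arrays over all probe sets ran from 0.982 to 0.991, against 0.995 to 0.999 among the other 5. The probe set for ACVR2A read 8.02 to 8.15 with doxycycline and 8.07 to 8.70 without, a difference of -0.26 (SE 0.16; limma, adjusted p = 0.71). TGFBR2 averaged 9.67 without and 9.32 with doxycycline, a difference of -0.35 (SE 0.21; limma, adjusted p = 0.704), and ACVR2B differed by -0.52 (SE 0.23; limma, adjusted p = 0.673). None of these 3 probe sets read higher with doxycycline, so they do not check the labels, and groups are named by label. Of the colon epithelial markers listed, 2 of 13 were measured: MUC1, a membrane mucin, averaged 8.74 and LGALS4, a gut galectin, 7.30. Of the immune markers 5 of 19 were measured, with mean levels from 7.01 to 7.75, so the array holds too few markers to check the cell type. In bulk RNA, fewer cells of a type and less RNA per cell cannot be told apart.

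Most members lay in the lower part of the table's range, and the 7 brightest were receptor chains. Their median level was 6.87, against 7.63 over all 1259 probe sets. Of the 98 members, 49 lay under the table's lower quartile of 6.88, which leaves 315 of all 1259 probe sets below it, and 15 lay above the table's median, of which 9 were receptors and 6 ligands. Only IFNGR2 and IFNGR1, which together form the receptor for interferon gamma, lay above the upper quartile of 9.31. No detection calls were used here, so whether a dim probe set registered any transcript is unknown. Brightness also depends on the probes, so this order is one of signal and not of transcript number.

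**Figure D1:**
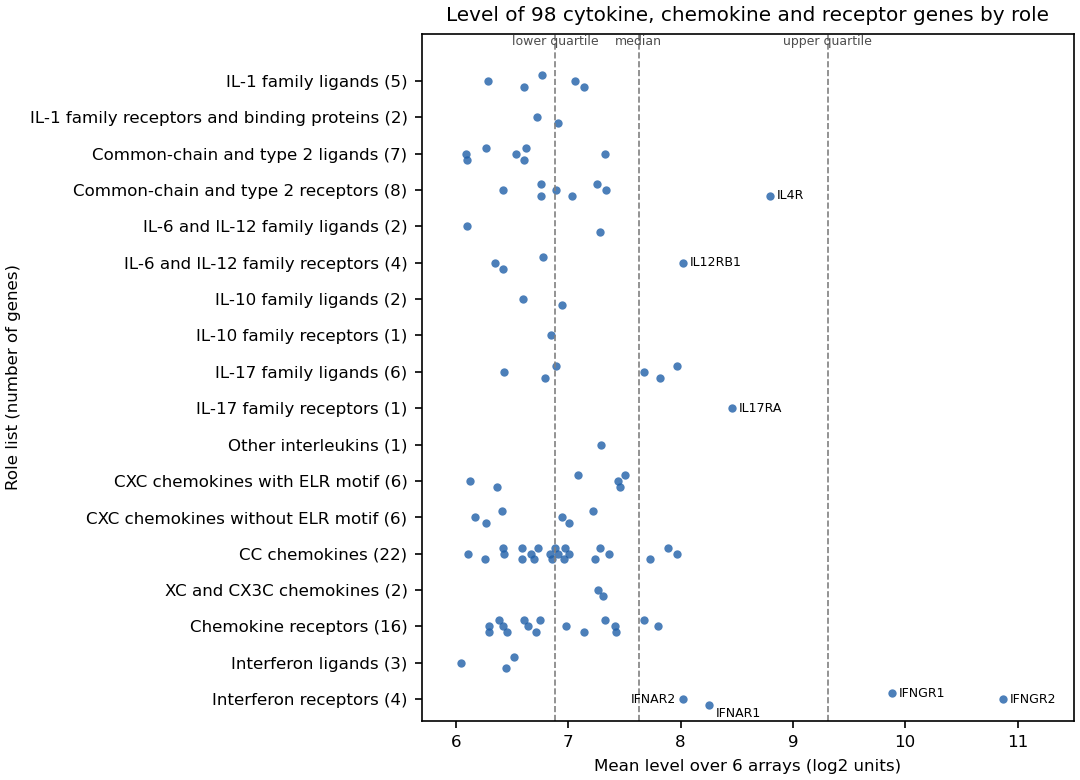
Mean level over the 6 arrays (horizontal axis, log2 units) of each of the 98 members, 1 point a gene, in rows by role with the number of genes; dashed lines mark the quartiles of all 1259 probe sets. The 4 interferon receptor chains, IL4R, IL17RA and IL12RB1 lie above 8, while every ligand lies below.

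The brightest members were IFNGR2 at a mean of 10.87 and IFNGR1 at 9.88, which held the first and second place on all 6 arrays. They were followed by IL4R at 8.79, the chain that binds interleukin 4 and also serves interleukin 13, IL17RA at 8.46, the chain shared by receptors of the interleukin 17 family, and the type I interferon receptor chains IFNAR1 at 8.25 and IFNAR2 at 8.02. The first 4 held the top 4 places on 5 of 6 arrays. IFNAR2 and IL12RB1, a chain of the interleukin 12 and 23 receptors, averaged 8.02 each and lay closer together than their spread.

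Ligands of these receptors were all under 8, and the interferons were among the dimmest members. Interferon gamma (IFNG) averaged 6.45, the type I interferons IFNB1 and IFNA2 6.52 and 6.05, and the interleukin 4 gene IL4 6.54. IFNA2 was the dimmest member of all. IL13 averaged 7.32, under the table's median. Among interleukin 17 ligands IL25, IL17C and IL17B averaged 7.97, 7.82 and 7.68, above the median, while IL17D, IL17F and IL17A averaged 6.89, 6.79 and 6.43. The 62 ligands had a median level of 6.84 and the 36 receptors and binding proteins one of 6.90, so the receptor lists as a whole were not bright: 17 of the 36 were under the lower quartile.

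With doxycycline, 0 of the 98 members passed an adjusted p of 0.05 (limma, Benjamini-Hochberg over 1259 probe sets), and 0% of all probe sets did. The smallest adjusted p was 0.477 among members and 0.158 over all probe sets. At an unadjusted p under 0.05 there was 1 member (1.02%), CXCL2, going by the brightest probe set of each gene. The share was 7.78% of all probe sets, with 3.26% higher and 4.53% lower with doxycycline. A second, dimmer probe set of IFNAR2 was also under 0.05 (limma, unadjusted p = 0.0278). The 3 arrays of one group lay wholly beyond those of the other for 13 members (13.3%), 5 higher and 8 lower. Over all probe sets this held for 15.8%, 7.55% higher and 8.26% lower, so the members' share was near the background. Differences were small: 93 of 98 members (94.9%) differed by less than 0.1 log2 units, against 64.2% of all probe sets. The 5 beyond that size were IFNGR2, IFNAR2, IL17RA, CXCL2 and CXCL8. The spread was also smaller, with a median SD of 0.05 without and 0.04 with doxycycline, against 0.09 and 0.05 over all probe sets. The confidence interval (95%) of the difference lay within 0.25 log2 units of no difference for 89 members, and within 0.5 for 97. Both the spread and the differences of all probe sets grew with brightness: their median absolute difference was 0.03 under the lower quartile, where the members' was 0.02, and 0.18 above the upper quartile. From the lower quartile to the median it was 0.04 for all probe sets and 0.03 for 34 members. Between the median and the upper quartile it was 0.11 for all probe sets, but 0.02 for 13 members. The 2 members above the upper quartile had 0.15.

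**Figure D2:**
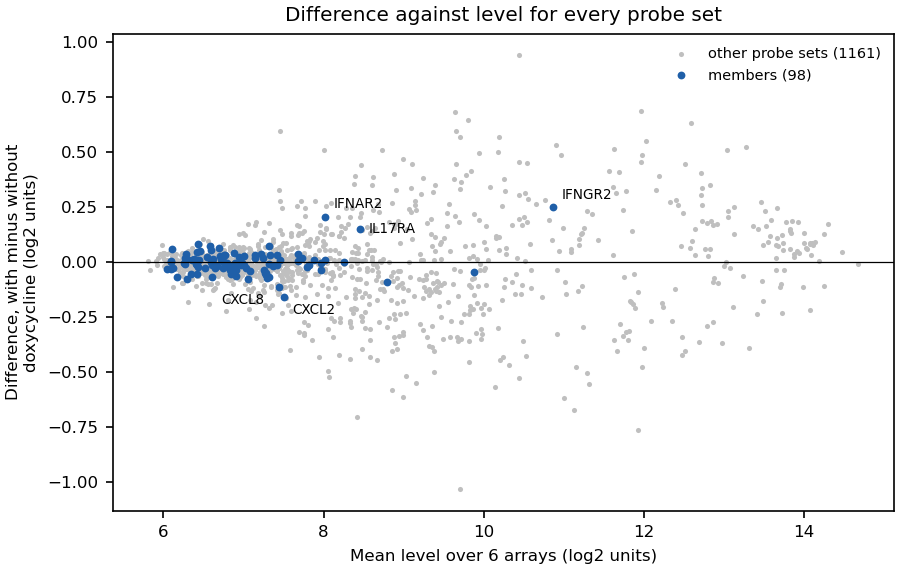
Difference with minus without doxycycline (vertical axis, log2 units) against mean level over 6 arrays (horizontal axis, log2 units) for the 98 members (blue) and the other probe sets (grey). The members lie mostly at the dim end, between -0.16 and 0.25, while the other probe sets spread out to -1.03 and 0.94.

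Members split between both directions. Higher values with doxycycline were read for 41 and lower values for 57, a share of 41.8% higher beside 45.4% of all probe sets, and the split depended on the scaling. It turned to 63 higher and 35 lower with array medians set equal, which moved the median of all probe sets from -0.0081 to 0.012, and to 51 and 47 after a further quantile normalization. Their median difference was -0.0061, against the -0.0081 of all probe sets. Without replicate 3 of the group lacking doxycycline, 34 were higher and 64 lower.

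Among interferon receptor chains, IFNGR2 and IFNAR2 had the largest positive differences of all members, and neither passed. IFNGR2, the signalling chain of the interferon gamma receptor, read 10.93, 10.81 and 10.50 on replicates 1, 2 and 3 without doxycycline, and 10.99, 11.00 and 10.99 with it. All 3 arrays with doxycycline were above all 3 without, and they lay within a far narrower band: 10.99 ± 0.0017 with and 10.75 ± 0.22 without (SD, n = 3 each). The difference was 0.25 (SE 0.11; limma, adjusted p = 0.675; exact permutation p = 0.1, the smallest that 3 arrays against 3 allow). Replicate 3 without doxycycline, the array standing apart, had the lowest value, and without it the difference was 0.13. That array held the lowest value of its group for 51 of the 98 members and for 49.2% of all probe sets.

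IFNAR2, which encodes the high-affinity chain of the type I interferon receptor, read 7.99, 8.02 and 7.75 without and 8.06, 8.24 and 8.07 with doxycycline. The groups did not overlap, and the difference was 0.20 (SE 0.09; limma, adjusted p = 0.675; exact permutation p = 0.1). Leaving out replicate 3 without doxycycline reduced it to 0.12. A further IFNAR2 probe set, dimmer at a mean of 7.49, was 0.25 higher (SE 0.08; limma, unadjusted p = 0.0278, adjusted p = 0.559), again with no overlap. The partner chain IFNGR1 read 9.996, 9.694 and 10.032 without and 9.834, 9.822 and 9.927 with doxycycline, a difference of -0.046 (SE 0.10; limma, adjusted p = 0.884) with overlapping groups. Whether partner chains differ in their response was not tested. For IFNAR1 the values were 8.37, 8.12 and 8.27 without and 8.25, 8.26 and 8.24 with, a difference of -0.0028 whose sign turned under both other scalings. The 4 chains had a median difference of 0.10, with 2 higher and 2 lower, and 3 higher and 1 lower under each of these scalings. Without the outlying replicate 3 their median was 0.07, with 4 higher and 0 lower. With array weights it was 0.02, with 2 higher and 2 lower. The interferon ligands IFNB1, IFNG and IFNA2 differed by -0.03, 0.0086 and -0.03.

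**Figure D3:**
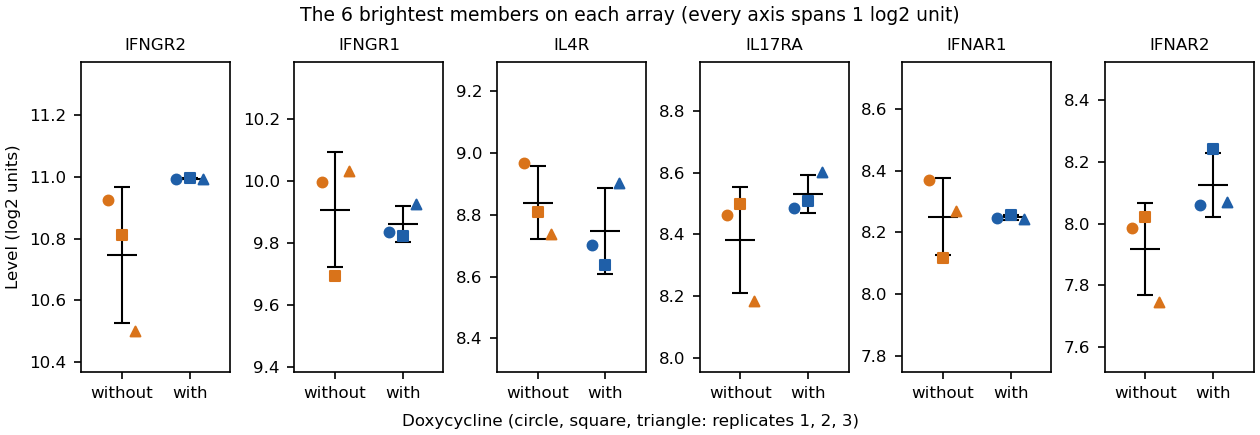
Level (vertical axis, log2 units, each spanning 1 unit) of the 6 brightest members on each array without (orange) and with (blue) doxycycline; marker shapes give replicates 1, 2 and 3, and bars the mean ± SD of 3. Replicate 3 without doxycycline is the lowest of its group for IFNGR2, IL4R, IL17RA and IFNAR2, and the points with doxycycline lie closer together for IFNGR2, IFNGR1, IL17RA, IFNAR1 and IFNAR2.

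Of interleukin receptors, IL17RA read 8.46, 8.50 and 8.18 without and 8.49, 8.51 and 8.60 with doxycycline. The groups overlapped, and the difference of 0.15 (SE 0.09; limma, adjusted p = 0.71) shrank to 0.05 on leaving out replicate 3 without doxycycline. IL4R read 8.97, 8.81 and 8.74 without and 8.70, 8.64 and 8.90 with, a difference of -0.09 (SE 0.09; limma, adjusted p = 0.74), also with overlap. It ranged from -0.17 without replicate 3 with doxycycline to -0.03 without replicate 1 lacking it, and was -0.20 with array weights. IL12RB1 varied little, at 8.02 ± 0.03 without and 8.02 ± 0.0063 with (SD, n = 3 each); its second probe set, at a mean of 7.01, differed by -0.03 with no overlap. The gene for the interleukin 10 receptor chain IL10RA read 6.87, 6.90 and 6.86 without and 6.85, 6.78 and 6.83 with, lower on every array but by only 0.05. IL18RAP, the accessory chain of the interleukin 18 receptor, likewise had separated groups at a difference of -0.06 (SE 0.04; limma, adjusted p = 0.692). Some receptor chains found on lymphocytes lay below the table's median: IL2RA at 6.42, IL2RB at 6.90, IL7R at 6.76 and IL2RG, the common gamma chain, at 7.26. Others lay above it, among them IL12RB1 and the chemokine receptor CCR10 at 7.68. The probe set for IL6ST, the gp130 signalling chain, was near the bottom of the table at 6.42, with a difference of 0.0068. Over the 8 receptors of common-chain and type 2 cytokines, 3 had higher and 5 lower values, at a median of -0.0033 that turned positive under both other scalings.

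Among interleukin ligands 9 of 23 were higher and 14 lower with doxycycline, with a median of -0.0040, and 0 passed. The split turned to 16 higher and 7 lower with array medians set equal, and to 12 and 11 after a further quantile normalization. IL37, an anti-inflammatory member of the interleukin 1 family, read 7.077, 7.129 and 7.101 without and 7.002, 7.054 and 7.013 with doxycycline. Its groups did not overlap, yet the difference was -0.08 (SE 0.03; limma, adjusted p = 0.669). IL17A, a cytokine of T helper 17 cells, read 6.378, 6.402 and 6.390 without and 6.409, 6.503 and 6.502 with, a separated difference of 0.08 (SE 0.04; limma, adjusted p = 0.682) at a level under the lower quartile. IL25 was separated the other way at -0.04, and IL7 at -0.03. IL16, a chemoattractant for CD4 cells, differed by -0.08 with overlap. IL1B, the fever-inducing interleukin 1 beta, averaged 7.14 and differed by 0.03, IL12A by -0.06, IL13 by -0.01, IL17C by -0.02 and the anti-inflammatory IL10 by -0.0095. Each of these differences is smaller than the median interval of a member, which reached 0.11 to either side.

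Chemokines with the ELR motif, which draw neutrophils through CXCR1 and CXCR2, held the member with the smallest p. CXCL2 read 7.604, 7.644 and 7.498 without and 7.442, 7.426 and 7.392 with doxycycline. Every array with doxycycline lay below every array without, at 7.58 ± 0.08 without and 7.42 ± 0.03 with (SD, n = 3 each). The difference was -0.16 (SE 0.05; limma, adjusted p = 0.477; exact permutation p = 0.1), and over all alternatives it stayed negative, with adjusted p from 0.0753 to 0.903. A second CXCL2 probe set, whose suffix marks probes that may bind related sequences, differed by -0.11 (SE 0.06; limma, adjusted p = 0.682), and its groups overlapped.

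CXCL8, also called interleukin 8, read 7.71, 7.37 and 7.44 without and 7.38, 7.42 and 7.38 with doxycycline. Its probe set too carries the suffix of probes that may bind related sequences. Its difference of -0.11 (SE 0.09; limma, adjusted p = 0.73) rests on replicate 1 of the group without, since it was -0.01 when that array was left out. The other CXCL8 probe set gave -0.12. CXCL1 read 7.50, 7.55 and 7.32 without and 7.44, 7.46 and 7.49 with, a difference of 0.0096 with overlap. CXCL3 read 7.26, 7.13 and 6.93 without and 7.07, 7.04 and 7.08 with, a difference of -0.04 that turned to 0.03 without that same replicate 1. Of the 6 ELR chemokines 2 read higher and 4 lower, at a median of -0.04. Leaving out replicate 1 of the group lacking doxycycline gave 3 and 3 with a median of 0.0093, and leaving out its replicate 3 gave 0 and 6 with a median of -0.09. Their receptor CXCR1 averaged 7.80 and CXCR2 6.39, with differences of -0.02 and 0.01.

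**Figure D4:**
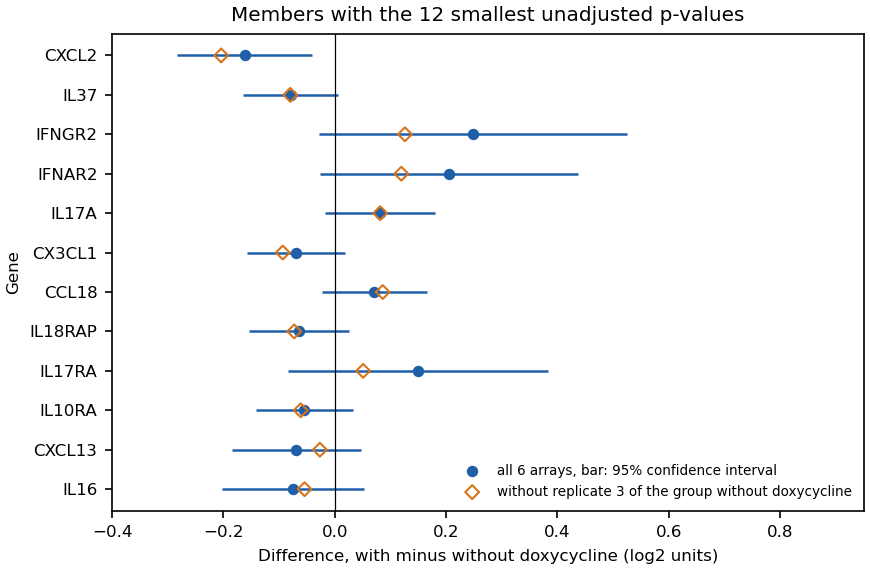
Difference with minus without doxycycline (horizontal axis, log2 units) of the 12 members with the smallest unadjusted p, with 95% confidence intervals over all 6 arrays (blue) and the value without replicate 3 of the group lacking doxycycline (open diamonds). The interval excludes 0 for CXCL2 alone, before adjustment; the diamonds move towards 0 for IFNGR2, IFNAR2 and IL17RA, and away from it for CXCL2.

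Among the other chemokines and the receptors every difference was under 0.1 in size. Of 22 CC chemokines, 10 were higher and 12 lower, a split that became 15 and 7 with array medians set equal and 12 and 10 after a further quantile normalization, and their median of -0.0052 turned positive under both. CCL25, a gut chemokine that recruits lymphocytes through CCR9, averaged 7.97 and differed by -0.0067, and CCL24, an eosinophil attractant, averaged 7.89 and differed by 0.0058. CCR9 itself averaged 6.75. CCL18, a product of macrophages and dendritic cells, read 6.569, 6.499 and 6.579 without and 6.595, 6.641 and 6.623 with doxycycline, a separated difference of 0.07 (SE 0.04; limma, adjusted p = 0.692). CCL5 was separated too, at 0.04. CCL20, an epithelial chemokine for CCR6-bearing cells, averaged 6.66 and differed by -0.02, and the monocyte attractant CCL2 averaged 6.11 and differed by 0.06. CX3CL1, a membrane-bound chemokine, read 7.37, 7.38 and 7.30 without and 7.27, 7.29 and 7.28 with, lower on every array at -0.07 (SE 0.04; limma, adjusted p = 0.682). CXCL13, the B cell attractant, was also separated at -0.07, but at -0.03 with replicate 3 lacking doxycycline left out. For CXCL12 the 3 probe sets gave 0.04, -0.04 and -0.03 from the brightest to the dimmest. Its receptor CXCR4 averaged 7.32 and differed by 0.07, with overlap. Of 16 chemokine receptors 8 read higher and 8 lower (12 and 4 with array medians set equal), at a median of 0.0029 and with differences from -0.08 to 0.07.

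Outside the rule, a list of 64 other cytokine pathway genes had 19 measured, of which 6 were higher and 13 lower with doxycycline, 0 passed, and the median was -0.04. The 4 with the smallest p were all brighter or wider in spread than most members. LIF, a ligand that signals through gp130, read 11.52, 11.47 and 11.18 without and 10.79, 10.83 and 11.12 with doxycycline, with no overlap. Its difference was -0.48 (SE 0.13; limma, adjusted p = 0.477), and -0.59 on leaving out replicate 3 without doxycycline. For its receptor chain LIFR the difference was -0.40 (SE 0.25; limma, adjusted p = 0.706), for OSMR, the oncostatin M receptor chain, -0.52 with no overlap (SE 0.27; limma, adjusted p = 0.682), and for the stem cell factor gene KITLG -0.39 (SE 0.20; limma, adjusted p = 0.682). Those 3 shrank to -0.14, -0.21 and -0.18 without that array, but grew to -0.64, -0.71 and -0.57 without replicate 2 lacking doxycycline.

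The brightest receptors with a promoter entry had more CpG dinucleotides there than most members. Of the 98 members 79 matched a promoter entry in RefSeq (GRCh38.p14), and the 250 bases before the annotated start were read, taking the start furthest 5′ where there were several. The count of CpG dinucleotides was 37 for IFNGR2, 35 for IL4R, 19 for IFNGR1 and 15 for IFNAR1, whereas the 75 matched members ranked after the 6 brightest had a median of 3.0. All 27305 RefSeq promoters had a median of 10, and those of 727 genes on the array 17.0. To show that contrast, the 150 bases before the start are given for IFNGR2 (chr21:33403263-33403412, plus strand) and IFNGR1 (chr6:137219386-137219535, minus strand), 5′ to 3′ with CpG in capitals, 24 and 17 in these stretches.
IFNGR2: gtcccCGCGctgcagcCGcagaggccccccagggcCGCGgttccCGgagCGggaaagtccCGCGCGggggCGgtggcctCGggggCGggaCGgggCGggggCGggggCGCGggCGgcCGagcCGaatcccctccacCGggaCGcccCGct
IFNGR1: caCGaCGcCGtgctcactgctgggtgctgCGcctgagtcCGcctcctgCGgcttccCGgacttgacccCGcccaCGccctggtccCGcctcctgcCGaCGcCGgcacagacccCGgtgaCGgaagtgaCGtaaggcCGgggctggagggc

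Across the 79 members CpG count and level had a Spearman rho of 0.24 (n = 79), which was 0.13 without the 4 matched genes among the 6 brightest, and 0.42 over the 727 array genes. Points share the arrays and the base composition of their promoters, and no test was made. CpG-rich promoters were found among dim members too, up to a count of 31 among those under the lower quartile.

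**Figure D5:**
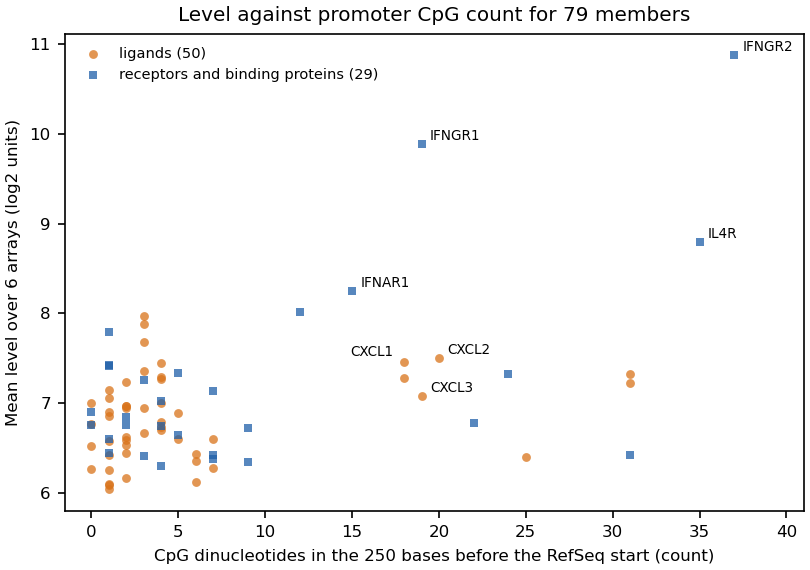
Mean level over 6 arrays (vertical axis, log2 units) against the number of CpG dinucleotides in the 250 bases before the RefSeq start (horizontal axis, count) for 50 ligands (orange circles) and 29 receptors and binding proteins (blue squares). IFNGR2, IL4R, IFNGR1 and IFNAR1 lie at counts of 15 to 37, and most ligands at low counts and levels.

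The letters TATAAA, searched on both strands in the same window, were in 26 of the 79 member promoters (32.9%), against 11.2% of all RefSeq promoters and 12.8% of array genes. The share differed with level. It was 25.2% for the 159 array genes under the lower quartile, members included, and 7.56% for those above the median. For the 41 members under the lower quartile it was 39%. The letters were in 21 of 50 ligands (42.0%), among them 9 of 15 CC chemokines, and in 5 of 29 receptors (17.2%). IL17A is printed as an example of a dim ligand (chr6:52186225-52186374, plus strand), with the match in capitals beginning 31 bases before the start.
IL17A: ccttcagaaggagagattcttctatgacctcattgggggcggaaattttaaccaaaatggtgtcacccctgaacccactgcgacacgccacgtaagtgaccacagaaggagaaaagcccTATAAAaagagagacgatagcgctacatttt

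A motif like that of the transcription factor NF-kappaB, made of GGG, any 2 bases and then TTTCC on either strand, was in 9 of 79 member promoters (11.4%) against 1.74% of all RefSeq promoters and 2.89% of array genes. Among the 159 array genes under the lower quartile, members included, it was in 7 (4.4%). It was in 5 of 6 ELR chemokines (CXCL1, CXCL2, CXCL3, CXCL5 and CXCL6), and in CCL20, IL9, IFNGR2 and IL4R. The matches in CXCL1, CXCL2 and CXCL3 lie in stretches 86.7% to 89.3% identical, so they are not independent and raise the members' share together. Each motif was counted separately. CXCL2 (chr4:74099196-74099345, minus strand), CXCL1 (chr4:73869243-73869392, plus strand) and CXCL3 (chr4:74038690-74038839, minus strand) are printed because CXCL2 had the smallest p among members and the other genes are its close paralogs. No other promoter was aligned with them. Capitals mark the motif, which begins 78 bases before the start in CXCL2 and 79 in CXCL1 and CXCL3.
CXCL2: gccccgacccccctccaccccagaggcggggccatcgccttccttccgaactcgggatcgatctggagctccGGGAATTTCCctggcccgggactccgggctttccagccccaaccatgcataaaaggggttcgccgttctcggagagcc
CXCL1: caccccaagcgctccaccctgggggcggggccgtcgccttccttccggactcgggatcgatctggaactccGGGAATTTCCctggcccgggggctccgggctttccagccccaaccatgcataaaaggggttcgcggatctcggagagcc
CXCL3: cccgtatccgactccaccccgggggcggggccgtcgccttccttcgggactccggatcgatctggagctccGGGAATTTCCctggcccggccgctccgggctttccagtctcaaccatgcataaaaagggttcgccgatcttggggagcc

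After alignment these 150 bases were identical at 89.3% of positions between CXCL1 and CXCL2, 88.7% between CXCL1 and CXCL3, and 86.7% between CXCL2 and CXCL3, while the differences with doxycycline were -0.16 for CXCL2, 0.0096 for CXCL1 and -0.04 for CXCL3. The genes are close paralogs, so signal shared between their probe sets is possible, single values among the 3 are uncertain, and the differences between them were not tested. A match to letters describes the sequence and is no measurement of binding.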

How the data were processed

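Total RNA was extracted with Trizol and biotin-labelled following Affymetrix instructions, according to the labels' protocols. The authors deposited log2 values made with RMA, per the submitters' processing notes; its version and any further step are not given in the sources used here. Of 1259 probe sets, 1043 were named by RefSeq accession without version through a RefSeq table (GRCh38.p14), 190 carry no such accession and 26 an accession outside that table. The brightest probe set stood for each gene; 9 members had several.

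The main test was limma 3.58.1 under R 4.3.3 (lmFit and eBayes without covariates), adjusted by Benjamini-Hochberg over all probe sets at 0.05, with an exact two-sided permutation test for single genes. The fit was tested on simulated data. The number of arrays limits the precision. Members and lists were chosen with earlier results of these data known. Genes named were the 12 brightest members, the 12 with the smallest p, the brightest of each role, the 5 with the widest spread without doxycycline, separated members with an unadjusted p under 0.05, members whose probe sets oppose by over 0.1 (none did), and 4 other pathway genes. Other members appear as examples chosen after their values were seen. Alternatives were other scalings, a filter on dim probe sets, array weights, a variance trend, other probe sets and leaving out arrays.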

Additional observations from a re-analysis of the deposited data

How the results depend on the processing

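Under the 14 alternatives 0 members passed, and at an unadjusted p under 0.05 limma gave from 0 to 6 members. The same count over all probe sets tested ran from 45 to 258. It was 246 with array weights, the setting that gave 6 members. Over all probe sets, array weights gave 1 past the threshold and each other setting 0. Of 33 genes with differences recomputed, 22 kept their direction in every setting and 0 passed, with a lowest adjusted p of 0.0699 (limma, array weights, LIF). Members with higher values numbered 63 with arrays centred on their medians and 19 of 49 tested with dim probe sets left out; 8 of those 49 had separated groups. Leaving out an array gave 34 to 51 higher members and 18 to 31 separated ones, since fewer arrays separate more easily. The share of all probe sets with separated groups under these settings is not given here, so these counts have no background beside them.

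Signs turned for small differences only. With arrays centred on their medians CCL25 was at 0.013, IFNAR1 at 0.017, IL10 at 0.011, IL13 at 0.0093 and IL17C at 0.0042, and after quantile normalization IFNAR1 was at 0.032. With array weights CXCR1 was at 0.015, IL10 at 0.0098 and IL13 at 0.047. The mean of a gene's probe sets gave CXCL12 -0.012 and IL12RB1 -0.014, and the dimmest -0.032 and -0.035. Leaving out each array gave ranges of -0.039 to 0.055 for CCL24, -0.045 to 0.032 for CCL25, -0.13 to 0.034 for CXCL3, -0.048 to 0.0032 for CXCR1, -0.069 to 0.056 for IFNAR1, -0.15 to 0.016 for IFNGR1, -0.026 to 0.018 for IL10, -0.0084 to 0.017 for IL12RB1, -0.046 to 0.027 for IL13 and -0.052 to 0.018 for IL17C. The cause was not tested.

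The replicate numbers did not pair the arrays: deviations of same-numbered arrays correlated at -0.15, -0.04 and -0.16, and no array correlated best with its own number. With the replicate number as a block, 0 of 1259 probe sets and 0 members passed, 41 members were higher, 13 had separated groups and the median member difference was -0.0061. CXCL2 had an adjusted p of 0.715 (limma). Without detection calls, signal over background limits what the 49 dim members can show.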
